A study of Mus musculus with 24 samples.

Results

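The cytosolic ribosomal protein genes encode the proteins of the ribosome that translates messenger RNA in the cytoplasm. They were taken by symbol. A gene was included if the annotation called it protein-coding and its symbol was Rpl or Rps followed by a number, with an optional letter a, x or l, or was Rplp0, Rplp1, Rplp2 or Rpsa, and ribosomal S6 kinases and pseudogenes were excluded. This gave 80 of the 54232 genes in the count tables, of which 31 encode proteins of the small subunit (Rps) and 49 encode proteins of the large subunit (Rpl). All but Rpl10l, which had 4 counts over all libraries, passed the filter on low counts, so 79 members were among the 18978 genes tested. The rule itself uses no measured value, though it was set with earlier results of these data known.

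The libraries were made from dorsal skin wounds of male C57BLKS/J mice of the genotype Lepr (db/db), which lack a working leptin receptor and are obese and diabetic. At 16 weeks of age each wound was made as a 6 mm full-thickness punch, covered with an alginate bandage that was renewed on day 3, and collected on day 10, when the mice were 17.5 weeks old. The bandages carried medium conditioned by primary macrophages. CM0 stands for medium of M0 macrophages (4 libraries), CM1 for that of M1 macrophages (4 libraries), CMA for M2a (5 libraries) and CMC for M2c (5 libraries), and control bandages (Ctrl, 6 libraries) completed the 5 groups. All groups thus shared the db/db genotype, the wound and the alginate bandage, and no wound of a non-diabetic mouse and no wound without a bandage was analysed here. The series title and design text name the comparison of each medium with the control bandage. The labels do not say whether each library came from a separate mouse, so p-values measure the spread between these samples.

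A ribosome consists of a small subunit, which reads the messenger RNA, and a large subunit, which joins amino acids into protein. In mammals nearly every ribosomal protein is encoded by 1 working gene that is expressed in all tissues, next to many processed pseudogenes, and the proteins are made in matched amounts. Most of their messenger RNAs begin with a C followed by a run of pyrimidines, the terminal oligopyrimidine or TOP motif, through which mTORC1 signalling controls their translation. Skin wounds contain dividing keratinocytes, fibroblasts that secrete collagen, and immune cells, all of which make ribosomes.

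The start of the gene was examined first, since the TOP motif is the feature these genes are best known to share. The RefSeq promoter table (GRCm38.p6) held 60 of the 80 members. In 13 of them (21.7%) the first base of an annotated start was a C followed by at least 4 bases that were C or T. The same held for 813 of 27025 genes in the table (3.01%), a gene being counted if any of its starts held the run. When the C was allowed to lie up to 2 bases from the annotated start, 21 members (35.0%) held the run, against 2863 genes (10.6%). Only the coding strand was searched. The 30-base windows printed here, with 15 bases before and 15 bases from the annotated start on the coding strand, belong to genes whose values are described further on or show examples of long runs. Capitals mark the run of C and T where it was found.
Rps6, chr4:86857353-86857382, minus strand: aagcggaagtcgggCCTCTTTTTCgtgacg
Rpl15, chr14:18270972-18271001, minus strand: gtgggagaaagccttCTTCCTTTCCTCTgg
Rpl38, chr11:114668565-114668594, plus strand: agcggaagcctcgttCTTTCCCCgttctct
Rplp2, chr7:141447636-141447665, plus strand: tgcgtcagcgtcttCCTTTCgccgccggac
Rps27, chr3:90213634-90213663, minus strand: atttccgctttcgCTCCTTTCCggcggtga
Rps21, chr2:180257364-180257393, plus strand: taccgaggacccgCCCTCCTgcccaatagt
The next windows held no such run within 2 bases of the annotated start, and are those of genes whose counts stood apart or whose levels differed most between groups.
Rps28, chr17:33824548-33824577, minus strand: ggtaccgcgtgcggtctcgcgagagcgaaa
Rpl41, chr10:128549154-128549183, minus strand: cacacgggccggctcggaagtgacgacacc
Rps2, chr17:24720048-24720077, plus strand: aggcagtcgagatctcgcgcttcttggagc
Rpl24, chr16:55966260-55966289, plus strand: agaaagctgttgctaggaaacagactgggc
Rpl3l, chr17:24727811-24727840, plus strand: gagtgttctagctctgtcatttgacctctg
A window without the run says only that these letters are not at this annotated start; start sites were not measured here.

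The members lie on 19 chromosomes, with 14 of them on chromosome 7 and 4 (Rpl10, Rpl36a, Rpl39 and Rps4x) on chromosome X. At least 1 gene of a small nucleolar RNA, the guides of ribosomal RNA modification, lies inside 29 of the 80 members (36.2%), against 258 of 21983 protein-coding genes (1.17%). The annotation names 291 pseudogenes after 59 of the members, led by Rpl31 with 24, Rps12 with 23 and Rpl21 with 15. Counts assigned to all 301 pseudogenes named after a ribosomal protein gene made up between 0.023% and 0.031% of the counts of a library. Exon bases were shared with another gene in 37 members, 18 of them with a gene on the opposite strand. The library kit does not mark strand, so reads over such bases cannot be assigned to 1 of the 2 genes with certainty.

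The 24 libraries held between 7267879 counts (Ctrl replicate 4) and 11985292 counts (Ctrl replicate 6), and the members took 5081007 of 227448692 counts (2.23%). Dermal fibroblast markers (69840 to 135530 summed CPM, counts scaled to library size) and basal keratinocyte markers (4830 to 9586 summed CPM) were present in every library, as the label of skin wound asks. A few libraries stood apart. Hair follicle genes reached 9438 summed CPM in Ctrl replicate 3, against a Ctrl median of 27.2. Skeletal muscle genes reached 14192 summed CPM in Ctrl replicate 4, and fibroblast genes were highest in CM1 replicate 3. The members' medians and counts, and those of the related gene lists, are given with and without these 3 libraries. Other libraries high on the same lists were kept. Hair follicle genes had a mean log2 CPM of 5.41 in CMA replicate 3 and 4.59 in CM0 replicate 2, against 8.37 and 5.15 in Ctrl replicates 3 and 4. Muscle genes had 9.24 in CM0 replicate 2, against 9.42 in Ctrl replicate 4.

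Levels are compared between genes as CPM per kilobase of merged exon length. The P1 stalk protein gene Rplp1 had the highest level, with a mean of 1274 CPM per kb over the 24 libraries. Rplp0, the base of the stalk that recruits elongation factors to the large subunit, followed with 584, and Rpl41, which encodes a very short basic peptide, with 490. The median member had 129 CPM per kb. Levels per length thus differed widely among genes whose proteins form 1 particle, but they depend on the annotated exons. Merged exon length was 499 bases for Rplp1 and 6270 bases for Rps15a, the lowest per length among members with at least 100 CPM. In CPM alone these 2 genes averaged 636 and 190. The part of annotated length in the differences was not tested. Of the 80 members, 71 averaged at least 100 CPM and spanned 42.0-fold per length, 4 averaged between 20 and 100 CPM, and 5 averaged less than 20 CPM.

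**Figure D1:**
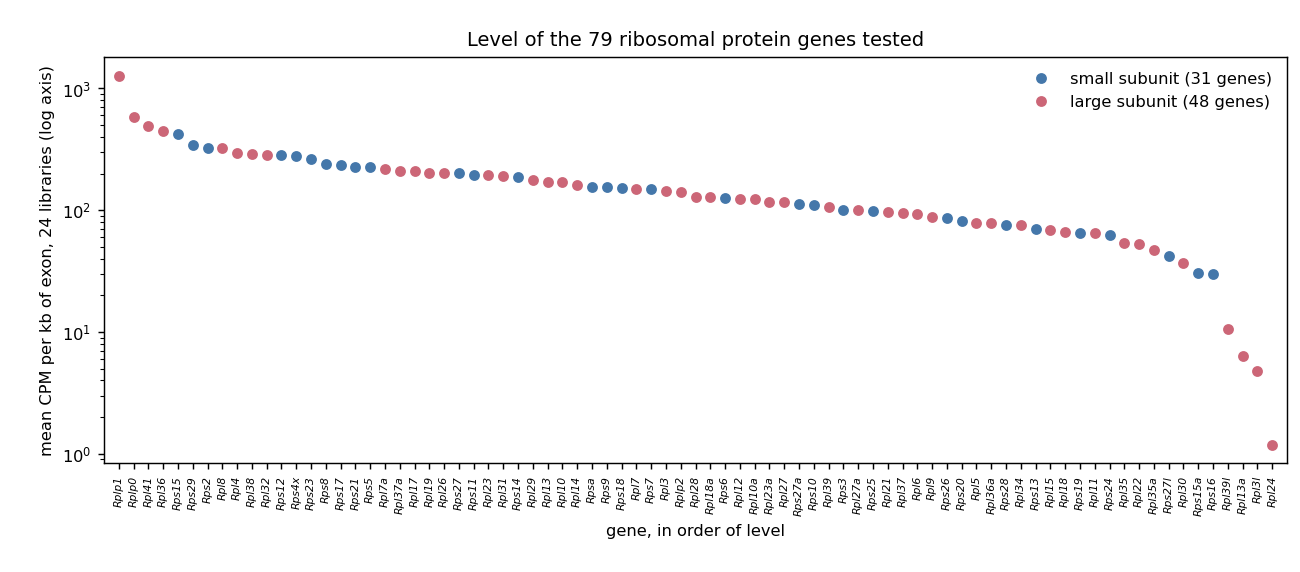
Mean level of the 79 members that passed the filter, in CPM per kilobase of merged exon length on a log axis, ordered from high to low and coloured by subunit. Rplp1 stands at 1274 and the low end is formed by Rps16 at 29.7, Rpl39l at 10.5, Rpl13a at 6.36, Rpl3l at 4.78 and Rpl24 at 1.18 CPM per kb.

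The lowest members were of different kinds. Rpl3l encodes a muscle form of Rpl3, and Rpl39l a form of Rpl39 that is known from testis, so both are paralogs with a narrow known expression. Rpl24 (chr16:55966275-55971435, plus strand), by contrast, encodes a protein of the bridge between the subunits that is made in all cells, yet it held only 280 counts over the 24 libraries. The annotation gives 47.0% of its exon bases also to Gm28037, which had 0 counts. Rpl13a (chr7:45125558-45128761, minus strand), a large-subunit protein also known from human monocytes as part of a repressor of translation, had 3040 counts. Of its exon bases 35.4% were shared with Snord33, Gm45713 and Mir5121, each with 0 counts, and its 1 named pseudogene held 845 counts, or 27.8% of those of Rpl13a. Rps16 (chr7:28350652-28353155, plus strand) had 8543 counts and shared no exon bases, and its 2 named pseudogenes held 678 counts. For these 3 genes the counts may reflect how reads over shared or repeated sequence were assigned, whose part was not tested. Their levels are therefore uncertain.

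The paralog pairs showed how the minor copies stood to the major ones. Counts of Rps27l, a copy of Rps27 known as a p53 target, were 16.5 ± 1.60% of those of Rps27 (SD, n = 24). Counts of Rpl22l1 were 11.9 ± 1.66% of those of Rpl22, counts of Rpl39l 5.79 ± 1.18% of those of Rpl39, and counts of Rpl3l 1.77 ± 1.24% of those of Rpl3. Shares of Rps27l and Rpl22l1 thus differed little between libraries for their size, while that of Rpl3l ranged from 0.526% to 5.14%. Near-identical stretches of a pair could exchange reads, so these shares are estimates.

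Across libraries the members moved as a block. The members took 2.42, 2.12, 2.31 and 2.13% of the counts in the 4 CM0 libraries and 2.31, 2.32, 2.58 and 2.02% in the 4 CM1 libraries. In the 5 CMA libraries they took 2.19, 2.21, 2.74, 2.40 and 2.15%, and in the 5 CMC libraries 2.38, 2.35, 2.06, 2.14 and 2.05%. In the 6 Ctrl libraries the share had a lowest value of 1.89%, a median of 2.01% and a highest value of 2.55%. All 5 groups overlapped: the highest library was CMA replicate 3, and Ctrl replicate 3 was the third highest of the 24, while the 3 lowest were Ctrl libraries.

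Group means of the share were 2.24 ± 0.145% with CM0, 2.31 ± 0.228% with CM1, 2.34 ± 0.243% with CMA and 2.20 ± 0.160% with CMC, against 2.11 ± 0.271% in Ctrl (SD, n = 4, 4, 5, 5 and 6). The ratio of each medium's mean to the Ctrl mean was 1.06 for CM0, 1.09 for CM1, 1.11 for CMA and 1.04 for CMC. Each of these differences was smaller than the SD among the Ctrl libraries. Transcripts of the mitochondrial genome took 0.917 ± 0.135% of counts with CM0, 0.836 ± 0.033% with CM1, 0.888 ± 0.098% with CMA and 1.01 ± 0.118% with CMC, against 1.03 ± 0.184% in Ctrl. CMA replicate 3, the highest library for ribosomal protein genes, was the lowest of the 24 for mitochondrial transcripts with 0.748%. Ctrl replicate 4, the lowest for ribosomal protein genes, was the highest for mitochondrial transcripts with 1.34%. The part of this mitochondrial share in the ribosomal one was not tested. In bulk tissue, fewer cells of a type and less RNA per cell cannot be told apart.

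**Figure D2:**
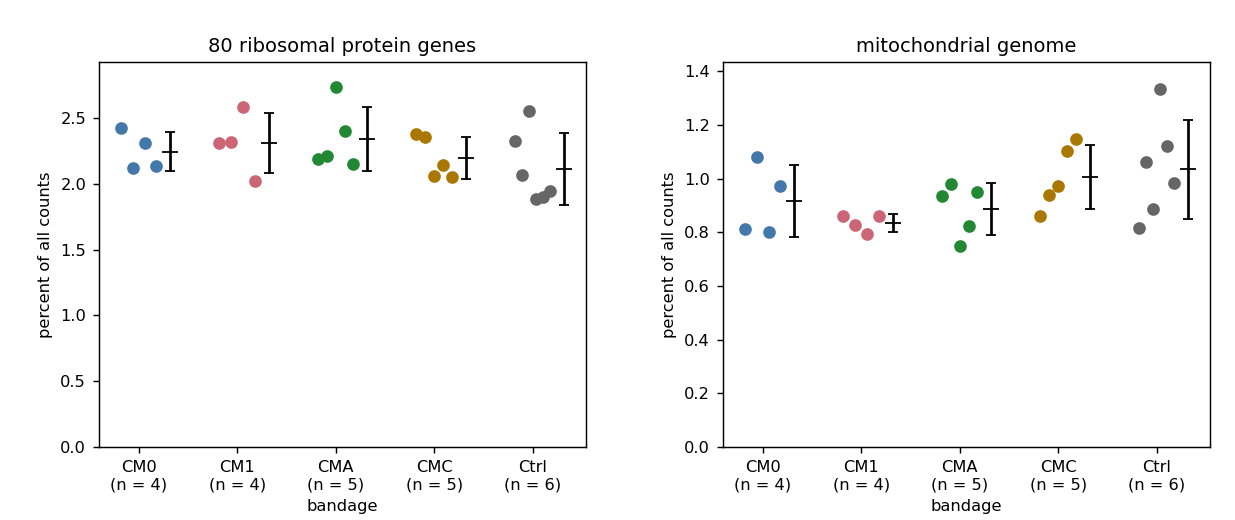
Percent of all counts in a library that fell on the ribosomal protein genes (left) and on the mitochondrial genome (right), by group, where each point is 1 library and bars give the mean and SD. The ribosomal share lies between 1.89% and 2.74% and overlaps between all groups, with means of 2.24, 2.31, 2.34 and 2.20% in the 4 media and 2.11% in Ctrl.

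The common movement was seen gene by gene. Of the 79 members, 78 lay above their own median over the 24 libraries in CMA replicate 3, and 77 did so in CM1 replicate 3 and in CMA replicate 4. In Ctrl replicates 4, 5 and 6 only 2, 1 and 2 members lay above their median, and in CMC replicate 3 only 2 did. Libraries of 1 group could lie at opposite ends: the counts were 73, 6, 69 and 36 in CM0, 64, 57, 77 and 11 in CM1, 48, 24, 78, 77 and 6 in CMA, 76, 75, 2, 17 and 8 in CMC, and 65, 5, 69, 2, 1 and 2 in Ctrl. No such counts were made for other genes. The difference between the lowest and highest library in the members' mean log2 CPM was 0.58, or 1.5-fold.

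The members' spread was close to that of other abundant genes. The median SD of a member's log2 CPM over the 24 libraries was 0.17, against 0.27 for all genes tested. For the 1833 other genes with at least 100 CPM it was 0.15, and 55.5% of them had a smaller SD than the members' median. After subtraction of the members' mean in each library the median SD of a member was 0.065. No like value was computed for other genes. Over the 24 libraries the median Pearson correlation between 2 members was 0.846, against 0.084 between a member and another gene with at least 100 CPM, and 73 members correlated above 0.8 with the mean of the others. These correlations are descriptions over libraries that share their normalization and, within a group, their treatment. The ratio of small-subunit to large-subunit counts was 0.711 with CM0, 0.713 with CM1, 0.708 with CMA, 0.711 with CMC and 0.702 in Ctrl, and 0.709 ± 0.009 over all libraries (SD, n = 24).

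**Figure D3:**
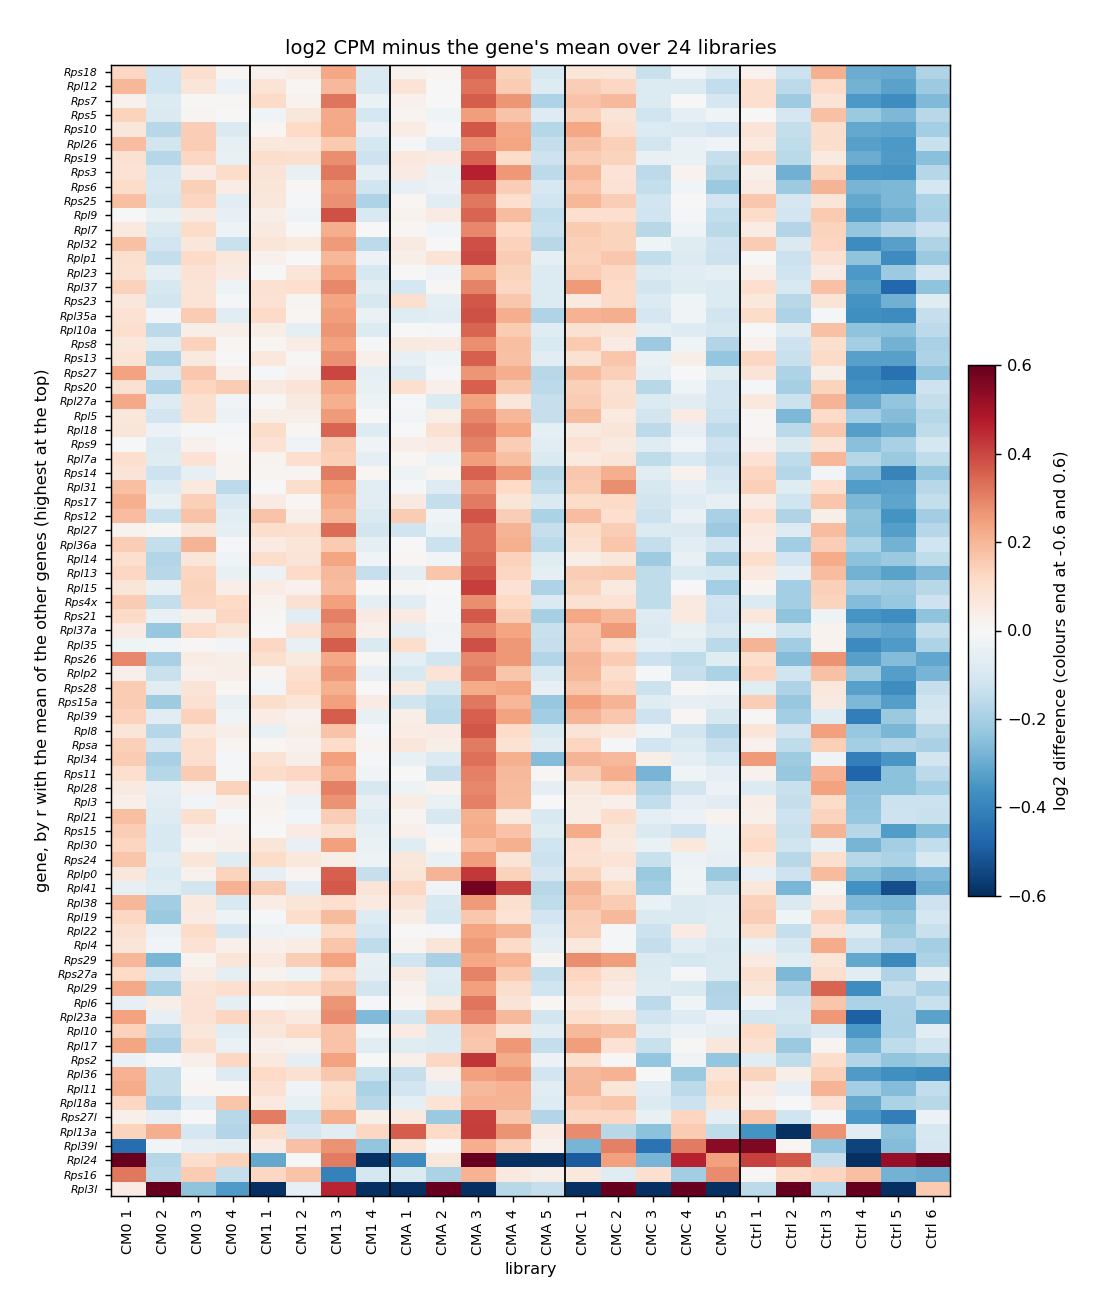
Log2 CPM of the 79 members in each of the 24 libraries, minus the gene's mean over the libraries, with colours ending at -0.6 and 0.6 and genes ordered by their correlation with the mean of the others. Whole columns are high (CMA replicate 3, CM1 replicate 3) or low (Ctrl replicates 4 and 5), and only the last 5 rows (Rpl13a, Rpl39l, Rpl24, Rps16 and Rpl3l) depart from the rest.

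A set of 5 members did not follow the block, with correlations with the mean of the others of 0.424 (Rpl13a), 0.350 (Rpl39l), 0.146 (Rpl24), 0.146 (Rps16) and -0.177 (Rpl3l). They were also the 5 lowest per length. The SD of log2 CPM was largest for Rpl3l (0.81), Rpl24 (0.45) and Rpl39l (0.29). It was smallest for Rpl21 (0.11), Rps24 (0.11) and Rpl22 (0.12), all of them abundant members.

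Each medium was then compared with the control bandage. The 4 comparisons share the 6 Ctrl libraries, as does the comparison of the mean of the 4 media with Ctrl, so their results are not independent of each other. No member passed an adjusted p of 0.05 in any of them by edgeR's quasi-likelihood test with Benjamini-Hochberg adjustment, and neither did any other gene: the share of all tested genes called was 0% in every comparison. DESeq2 and limma voom called 0 members too. No member had all its libraries of a medium above those of Ctrl, as 0.285% of all genes did with CM0, 0.453% with CM1, 0.148% with CMA and 0.232% with CMC, and none had them all below, as 0.516%, 0.648%, 0.179% and 0.311% did in that order. The values that follow are therefore differences that did not pass the test.

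Without reaching the threshold, nearly all members had a higher fitted level in each medium than in Ctrl. The log2 fold change was above 0 for 77 of 79 members with CM0, 76 with CM1, 77 with CMA and 76 with CMC, and for 77 in the mean of the media. Over all tested genes the share above 0 was 47.4% with CM0, 48.7% with CM1, 46.7% with CMA, 48.4% with CMC and 47.1% in the mean. Among the 1833 other genes with at least 100 CPM, which are closer to the members in level, it was 63.4%, 66.3%, 58.4%, 65.2% and 66.0% in the same order. Because the members move together between libraries, they are not 79 independent observations, and the same direction had been seen in these data before the genes were chosen.

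Sizes were small. The median log2 fold change of the members against Ctrl was 0.13 with CM0, 0.17 with CM1, 0.18 with CMA, 0.11 with CMC and 0.15 in the mean of the media. Over all genes tested it lay between -0.01 and 0 in each comparison. For the other genes with at least 100 CPM it was 0.03, 0.05, 0.02 and 0.04. Small-subunit members had medians of 0.14, 0.20, 0.19 and 0.12 in CM0, CM1, CMA and CMC, and large-subunit members had 0.12, 0.17, 0.17 and 0.10. Without Ctrl replicate 3, Ctrl replicate 4 and CM1 replicate 3, the medians of all members were 0.15, 0.14, 0.21 and 0.13 in CM0, CM1, CMA and CMC, and 77, 76, 77 and 77 members were above 0. A log2 fold change above 0.25 was reached by 1 member with CM0, 5 with CM1, 10 with CMA, none with CMC and 3 in the mean of the media, against 9.37%, 10.5%, 10.4%, 9.37% and 7.03% of all genes tested.

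**Figure D4:**
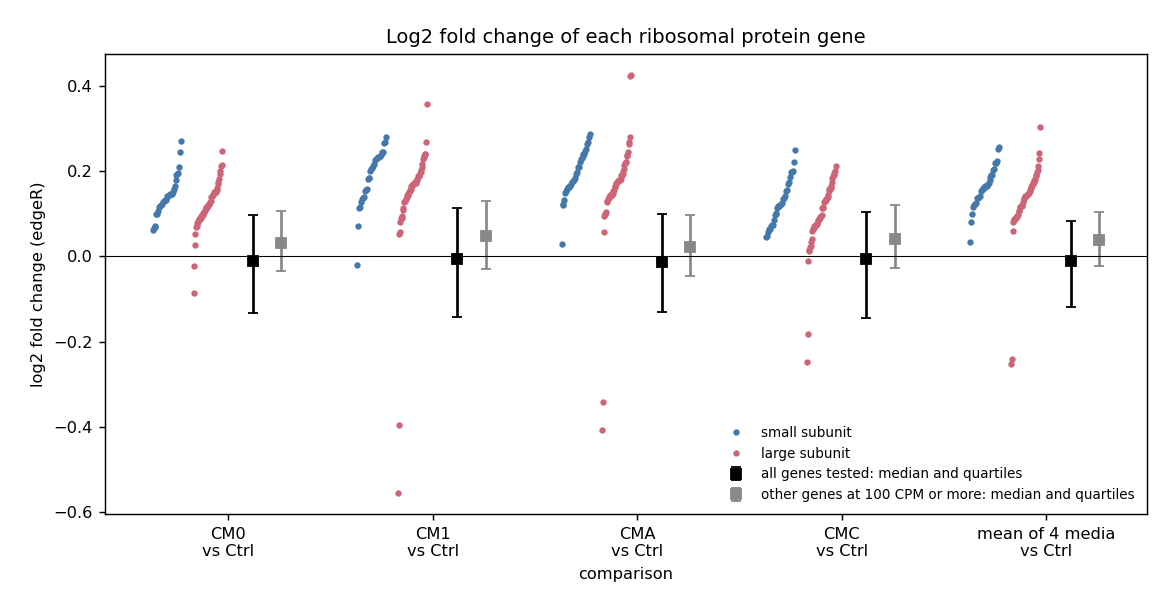
Log2 fold change of each of the 79 members for every medium against Ctrl and for the mean of the 4 media, with squares and lines giving the median and quartiles of all genes tested and of the other genes with at least 100 CPM. Most members lie in a narrow band above 0, with medians from 0.11 in CMC to 0.18 in CMA. The points far below the band are Rpl3l and Rpl24, and in CMA Rpl41 (0.43) and Rpl13a (0.42) lie above it.

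At an unadjusted p under 0.05, 4 members were higher than Ctrl with CM0 (2.13% of all genes were), 19 with CM1 (3.37%), 31 with CMA (3.95%) and 3 with CMC (3.77%), and 32 in the mean of the media (4.22%). None was lower, as 2.78%, 3.68%, 2.66%, 4.78% and 5.2% of all genes were in the same order. Among the 1833 other genes with at least 100 CPM, 76, 122, 127, 157 and 168 differed at that threshold in either direction, in the same order. By DESeq2 the counts of members higher than Ctrl were 5, 20, 37, 5 and 37. By limma voom with sample weights they were 35, 58, 55, 19 and 70. Of the 24 libraries, voom gave the lowest weights to Ctrl replicate 3 (0.488) and Ctrl replicate 6 (0.549). The part of these weights in the voom counts was not tested. The counts rested on single libraries. In CMA the count was 5 without CMA replicate 3 and 58 without Ctrl replicate 3. In CM1 it was 1 without CM1 replicate 3 and 53 without Ctrl replicate 3. In CM0 it was 0 without Ctrl replicate 4 and 28 without Ctrl replicate 3, in CMC 0 without CMC replicate 1 and 18 without Ctrl replicate 1, and in the mean of the media 7 without Ctrl replicate 5 and 68 without Ctrl replicate 3.

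Rps28, a small-subunit protein, had the smallest p in the mean of the media. Its level was 143, 123, 136 and 129.6 CPM in CM0 and 127, 139.5, 149 and 129 CPM in CM1. In CMA it was 133, 120.1, 149.9, 151 and 124 CPM, in CMC 144, 140.3, 118, 129 and 127 CPM, and in Ctrl the lowest was 99.4, the median 115 and the highest 135 CPM. All 18 libraries of the media lay above the Ctrl median, but the ranges overlapped in each group. This held for 27 of the 79 members, and for 67 members at least 16 of the 18 libraries did so. The share over all genes was not computed. The log2 fold change of the mean of the media was 0.22 ± 0.06 (SE), with an adjusted p of 0.40 by edgeR.

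The next members of the small subunit were Rps21, a short protein made in all eukaryotes, and Rps27, a zinc finger protein. Rps21 had 197, 177, 187 and 199 CPM with CM0, 184, 175, 225 and 189 with CM1, 189, 182, 235, 202 and 159 with CMA and 214, 209, 173, 190.1 and 168 with CMC. In Ctrl its lowest, median and highest levels were 141, 154 and 192 CPM. Every medium library was above the Ctrl median, as for the 27 members counted above, and the highest Ctrl library lay among the medium libraries. Its log2 fold change in the mean of the media was 0.26 ± 0.08 (edgeR adjusted p = 0.41).

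Rps27 had 247, 197, 234 and 214 CPM with CM0, 208, 213, 275 and 201 with CM1, 197, 207, 251, 243 and 186 with CMA and 238, 231, 201, 209 and 199 with CMC, against a Ctrl lowest of 153, median of 181 and highest of 220.3 CPM. Groups again overlapped. Its log2 fold change was 0.25 ± 0.08 in the mean of the media (edgeR adjusted p = 0.43).

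Among the large-subunit members, Rpl41 had the largest log2 fold change in the mean of the media, 0.30 ± 0.10 (edgeR adjusted p = 0.437). Its level was 545, 536, 523 and 651 CPM with CM0, 626, 538, 728 and 596 with CM1, 614, 556, 843, 747 and 502 with CMA and 649, 608, 489.6, 552 and 515 with CMC, against a Ctrl lowest of 389.6, median of 463 and highest of 590.5 CPM. CMA replicates 3 and 4 and CM1 replicate 3 were highest. CMA averaged 652 ± 140.4 CPM, against 486 ± 78.5 CPM in Ctrl (SD, n = 5 and 6), with a log2 fold change of 0.43 ± 0.13 (edgeR adjusted p = 0.725). Relative to Rplp0, counts of Rpl41 were 57.1% with CM0, 62.5% with CM1, 60.6% with CMA and 60.6% with CMC, against 55.0% in Ctrl.

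In CMA the next smallest p belonged to Rps2, which lines the entry of the messenger RNA channel, and Rpl13a. Rps2 had 607, 648, 800.1, 693 and 580.0 CPM in CMA, against a Ctrl lowest of 505, median of 530.3 and highest of 641 CPM, with a log2 fold change of 0.28 ± 0.09 (edgeR adjusted p = 0.725). Rpl13a had 17.1, 14.4, 17.7, 16.0 and 13.7 CPM in CMA, against a Ctrl lowest of 7.96, median of 11.8 and highest of 16.0 CPM, with a log2 fold change of 0.42 ± 0.14 (edgeR adjusted p = 0.725). For both, all 5 CMA libraries lay above the Ctrl median, a trait whose share over all genes was not computed. Its sharing of exon bases, given above, limits what the Rpl13a counts stand for.

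In the other media the smallest p-values belonged to Rps28, Rps27, Rps21 and Rpl41. In CM0 the log2 fold change was 0.21 ± 0.09 for Rps28, 0.27 ± 0.11 for Rps27 and 0.24 ± 0.10 for Rps21, each with an edgeR adjusted p of 0.946. In CM1 it was 0.24 ± 0.09 for Rps28, 0.36 ± 0.14 for Rpl41 and 0.27 ± 0.10 for Rps21, each with an edgeR adjusted p of 0.695. In CMC it was 0.25 ± 0.10 for Rps21 (edgeR adjusted p = 0.549), 0.20 ± 0.08 for Rps28 (0.561) and 0.22 ± 0.11 for Rps27 (0.585). These 4 media share their control libraries, so the recurrence of names is not separate evidence.

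Over all 5 groups, edgeR's test of any difference gave its smallest member p-values to Rpl41 (0.0339), Rps28 (0.0353) and Rps2 (0.0371), each with an adjusted p of 0.929, and no further member was under 0.05. Of all 18978 genes, 882 (4.65%) passed an unadjusted p of 0.05 in that test and 0 passed after adjustment. The group mean was highest with CMA for 43 members, with CM1 for 28, with CM0 for 5, with CMC for 2 and in Ctrl for 1. It was lowest in Ctrl for 74. The shares over all genes were not computed. The members move together between libraries, so these counts are not of independent observations.

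By role in the ribosome the other members of the panel showed differences of a like size in the mean of the media. In the head and body of the small subunit, the log2 fold change was 0.20 for Rps20, 0.20 for Rps14, 0.22 for Rps3, a protein of the mRNA entry channel, and 0.17 for Rps4x, the X-linked S4 gene. For Rps19, which is mutated in human Diamond-Blackfan anaemia, it was 0.19. In the stalk of the large subunit it was 0.19 for Rplp1 and 0.17 for Rplp0. For Rpl5, which carries the 5S ribosomal RNA and can bind Mdm2, it was 0.17, and for Rpl10, which is added late and is needed for the subunits to join, 0.15. Apart from Rpl13a and Rpl24, whose values are given elsewhere, the rest of the panel had 0.08 to 0.18, among them Rps29 (0.18), Rps6 (0.14), the substrate of the S6 kinases, Rplp2 (0.13), Rpsa (0.12), also known as the laminin receptor precursor, and Rpl38 (0.12), which mouse embryos need for translation of Hox messages. The peptide-bond centre and exit tunnel proteins Rpl3 and Rpl4 had 0.11 and 0.09, Rpl27a had 0.12, and Rpl11, the partner of Rpl5, Rpl22 and Rps27a, which is made as a fusion to ubiquitin, had 0.08 each. None passed adjustment over all genes, with edgeR adjusted p-values of 0.461 for Rps20, 0.463 for Rplp1 and 0.540 for Rplp0.

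Abundant stalk genes show the overlap behind these fold changes. Rplp0 had 1008, 908, 979 and 1055 CPM with CM0, 929.5, 971, 1231 and 873 with CM1, 1009.8, 1106, 1291, 1058 and 896 with CMA and 1054, 994, 823, 945 and 823 with CMC, against a Ctrl lowest of 787, median of 842 and highest of 1097 CPM. Rplp0 is often used as a reference gene in quantitative PCR. Rplp1 counts were 65.8 ± 3.39% of those of Rplp0, and Rplp2 counts 30.2 ± 1.97% (SD, n = 24), so the 3 stalk genes kept their proportions over the libraries.

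The members with a lower fitted level than Ctrl were few. Rpl24 was lower in each medium, with a log2 fold change of -0.25 ± 0.24 in the mean of the media (edgeR adjusted p = 0.753), on 5 to 21 counts per library. Rpl3l was lower in CM1, CMA and CMC, with -0.24 ± 0.40 in the mean of the media (edgeR adjusted p = 0.870). Of the rest, Rpl39l was lower in CM0 (-0.09), Rps16 in CM1 (-0.02) and Rpl14 in CMC (-0.01). For 77 or 78 of the 79 members, depending on the comparison, the 95% interval did not reach a 2-fold change either way.

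Some genes that encode further parts of the same particle fall outside the symbol rule. In the mean of the media the log2 fold change was 0.18 ± 0.08 for Fau, which encodes Rps30 fused to a ubiquitin-like protein, and 0.18 ± 0.07 for Rps3a1. Rack1, a scaffold protein on the small subunit, had 0.13 ± 0.07. None of these 3 passed edgeR's adjustment, with adjusted p-values of 0.478 for Fau, 0.468 for Rps3a1 and 0.566 for Rack1.

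The media were also compared with each other. Over the 6 pairs of media no member passed edgeR's adjusted threshold, and no gene did (0% called), nor did DESeq2 or limma voom call any. At an unadjusted p under 0.05 only 1 of the 79 members differed, Rps2, which was higher in CMA than in CMC, as 3.84% of all genes were. In the other pairs between 0.97% and 2.28% of all genes differed in a given direction, so the members' count lay below the background. The median log2 fold change of the members was 0.04 for CM1 against CM0, 0.05 for CMA against CM0, -0.02 for CMC against CM0, -0.01 for CM1 against CMA, 0.06 for CM1 against CMC and 0.07 for CMA against CMC. The smallest p was that of Rps2 in CMA against CMC: it had 607, 648, 800.1, 693 and 580.0 CPM in CMA, against 636, 597, 506, 586 and 507 CPM in CMC, with a log2 fold change of 0.23 ± 0.09 (edgeR adjusted p = 0.79). Rpl39l in CMA (8.59 to 10.0 CPM) against CM0 (6.22 to 8.48 CPM) was the only member of any pair whose libraries did not overlap. In that pair and direction 0.48% of all genes did so, and over the 6 pairs the share in a given direction ran from 0.385% to 1.16%. Counted over all pairs and both directions, 1 such member did not exceed these shares. The log2 fold change of Rpl39l was 0.23 and did not pass edgeR's test. The smallest-p members of the other pairs were Rps27l with CM1 against CM0 (0.16 ± 0.13), Rpl41 with CMA against CM0 (0.21 ± 0.14), Rpl39l with CMC against CM0 (0.28 ± 0.20), Rpl13a with CM1 against CMA (-0.23 ± 0.15) and Rpl14 with CM1 against CMC (0.17 ± 0.10).

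Rpl3l (chr17:24727820-24736143, plus strand) was the member least like the others. It encodes a form of Rpl3 that striated muscle uses in place of the common one. It had 6.86, 22.2, 5.60 and 5.21 CPM with CM0, 4.33, 6.41, 9.13 and 3.92 with CM1, 2.46, 16.1, 4.28, 5.89 and 6.01 with CMA and 4.26, 10.9, 3.72, 14.8 and 3.37 with CMC, against a Ctrl lowest of 3.64, median of 6.68 and highest of 15.7 CPM. Every group held both low libraries and at least 1 library with over 9 CPM. Rpl3 itself lay between 384 and 559 CPM in all libraries.

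The level of Rpl3l was compared with skeletal muscle markers, since the gene is known from striated muscle. Over the 24 libraries its log2 CPM correlated with the mean log2 CPM of the muscle markers with Pearson's r = 0.871 and Spearman's rho = 0.798. The permutation p was 1e-05 for each, two-sided and the smallest that 100000 permutations can give, and this was the only such relation computed. Without Ctrl replicate 4 and CM0 replicate 2, the libraries farthest from the median of the muscle markers, r was 0.830 and rho 0.750 (n = 22). With each group centred on its own mean r was 0.873 (n = 24). Within the 6 Ctrl libraries it was 0.944, and no separate value was computed for the other groups, which hold 4 or 5 libraries. Summed muscle markers ranged from 3860 to 11034 CPM with CM0, 2996 to 5845 with CM1, 2380 to 6790 with CMA and 2608 to 7594 with CMC, against 4039 to 14192 CPM in Ctrl.

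**Figure D5:**
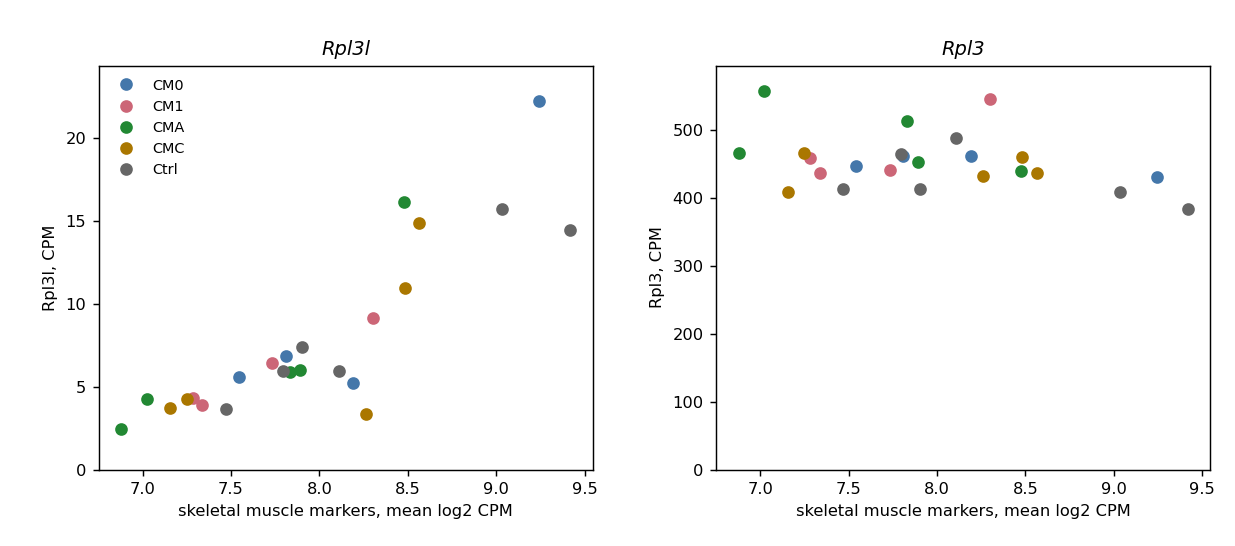
Level of Rpl3l and of Rpl3 in CPM on axes that start at 0, against the mean log2 CPM of the skeletal muscle markers, with 1 point per library coloured by group. Rpl3l runs from 2.46 to 22.2 CPM and is higher where the muscle markers are higher, while Rpl3 stays between 384 and 559 CPM.

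Genes around the ribosome were described by list, with no test of a list. In the mean of the media 47.1% of all genes were above 0 and 52.9% below. For the mean of the media against Ctrl, 11 of 15 elongation factor genes had a log2 fold change above 0, with a median of 0.06, and the smallest p belonged to Eef1b2 (0.19 ± 0.07, edgeR adjusted p = 0.443), a part of the exchange factor that recharges eEF1A. Of 36 initiation factor genes 20 were above 0, with a median of 0.01. Of 17 further genes with a known TOP motif, a list that shares members with the elongation factors, 15 were above 0, with a median of 0.05. Genes of the secretory translocon, where ribosomes that make secreted proteins dock, were above 0 in 18 of 20, with a median of 0.09 and Ssr4 at 0.22 ± 0.07 (edgeR adjusted p = 0.412). Without Ctrl replicate 3, Ctrl replicate 4 and CM1 replicate 3 the genes above 0 were 12 of 15, 28 of 36, 15 of 17 and 18 of 20 for these 4 lists, with medians of 0.08, 0.05, 0.06 and 0.08. No gene of these lists passed the adjusted threshold, against 0% of all genes.

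Values of the genes that build ribosomes depended on the libraries that stood apart. Of 62 ribosome assembly genes 48 had a log2 fold change below 0 in the mean of the media, with a median of -0.06, and at an unadjusted p under 0.05, 8 were lower and 1 was higher (5.2% of all genes were lower). The smallest p belonged to Utp14a, a factor of small-subunit processing, with 18.3 ± 1.42 CPM with CM0, 19.9 ± 1.11 with CM1, 19.4 ± 1.65 with CMA and 19.1 ± 2.05 with CMC, against 22.1 ± 1.94 CPM in Ctrl, and a log2 fold change of -0.21 ± 0.06 (edgeR adjusted p = 0.412). Of 19 genes of RNA polymerases I and III, which transcribe ribosomal RNA, 12 were below 0, with a median of -0.06. Of 27 genes of mTORC1 and its control of TOP messages 16 were below 0, with a median of -0.04. Without those 3 libraries the ribosome assembly genes had 27 of 62 below 0 and a median of 0.01, with 0 lower and 1 higher at an unadjusted p under 0.05 by edgeR. The polymerase genes then had 10 of 19 below 0 and a median of -0.02, and the mTORC1 genes 12 of 27 and 0.01. The 77 genes of the mitochondrial ribosome, a separate particle, had 46 above 0 and a median of 0.01.

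Several cell type marker lists differed in level between groups beside the ribosomal protein genes, with no gene past edgeR's adjusted threshold. In the mean of the media against Ctrl all 25 cell cycle genes were below 0 (median -0.23, with 8 lower at an unadjusted p under 0.05, against 5.2% of all genes), all 10 wound keratinocyte genes above 0 (0.88), all 10 dermal fibroblast genes above 0 (0.20), and 13 of 14 muscle genes below 0 (-0.59), beside 47.1% of all genes above 0. All 11 hair follicle genes (median -3.60) and all 9 melanocyte genes (-1.85) were also below 0, with 11 and 7 lower at an unadjusted p under 0.05 by edgeR. Without Ctrl replicate 3, Ctrl replicate 4 and CM1 replicate 3, 14 of the 25 cell cycle genes were below 0 (median -0.01). Of these genes 0 were then lower at an unadjusted p under 0.05 by edgeR. All 11 hair follicle genes were then above 0 (2.28), as were 6 of the 7 melanocyte genes tested (0.78). That fit kept CMA replicate 3 and CM0 replicate 2, which were also high in hair follicle genes. The 10 wound keratinocyte and 10 fibroblast genes were then still above 0 (0.67 and 0.14), and 13 of 14 muscle genes below 0 (-0.27). Summed fibroblast markers ranged from 75513 to 101230 CPM with CM0, 75665 to 135530 with CM1, 74277 to 107947 with CMA and 87030 to 96759 with CMC, against 69840 to 102970 CPM in Ctrl. Summed wound keratinocyte markers ranged from 933 to 6791 CPM with CM0, 2279 to 6026 with CM1, 1684 to 6284 with CMA and 1736 to 6774 with CMC, against 797 to 6044 CPM in Ctrl. The ranges overlapped between all groups, and the part of these cell types in the levels of the ribosomal protein genes was not tested.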

How the data were processed

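Total RNA of day 10 wounds was depleted of ribosomal RNA and made into libraries with a kit that does not mark strand, per the labels' protocols. The submitters' processing notes name bcl2fastq 2.17, FastQC, cutadapt, STAR, featureCounts and DESeq2 and the build GRCm38; the settings for reads that map to several places or to overlapping genes are not given in these sources. The deposited values are raw read counts per Ensembl gene, 1 table for each of the 24 libraries, with totals from 7267879 to 11985292. No per-sample column was left unmapped.

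Counts were tested as deposited with edgeR 4.0.16 (R 4.3.3): the default filter on low counts, TMM normalization, 1 fit over all 24 libraries with a term per group, the quasi-likelihood test and Benjamini-Hochberg adjustment over the 18978 genes tested. The mean of the 4 media weighs each medium equally. Log2 CPM used a prior count of 2. Symbols were taken from the Ensembl annotation of GRCm38, and promoter windows from the RefSeq table of GRCm38.p6. The code was tested on simulated data. Figures were drawn with matplotlib 3.10.9 and permutations run with scipy 1.17.1.

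The members, the related gene lists and the panel were chosen with earlier results of these data known. Genes named are the 3 members of smallest p for each comparison with Ctrl and in the test of any difference, the 1 in each pair of media, a panel of 24 members, those of extreme level or spread, paralogs, genes outside the symbol rule and the gene with the smallest p in a related list. Replicate numbers were given in accession order and pair no samples. Alternatives were other size factors (median of ratios, TMM without ribosomal protein genes, totals alone), no filter, DESeq2 1.42.0, limma 3.58.1 voom with sample weights, fits of 2 groups only and leaving out each library. After the data were seen, the counts of members higher and the omission of Ctrl replicate 3, Ctrl replicate 4 and CM1 replicate 3 together, also for the related lists, were added.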

Additional observations from a re-analysis of the deposited data

Results flagged for a closer look

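In groups of 4 to 6 libraries, 1 library lay far from the others of its group in 11 of the 175 groups examined, which cover 33 named members, the members' share of counts and the ratio of the subunits' counts. Chance marks about 1 group in 20 in this way. CM1 replicate 3 was the high library for Rps27 (275.5 CPM, next 213), Rpsa (533 CPM, next 504), Rps14 (554 CPM, next 451) and Rpl5 (366 CPM, next 314). CM0 replicate 2 was the low library for Rps4x (409.8 CPM, next 490.4) and Rplp2 (264 CPM, next 296) and the high one for Rpl3l (22.2 CPM, next 6.86). CMA replicate 2 was also high for Rpl3l, with 16.1 CPM and the next library at 6.01. CM0 replicate 4 was high for Rpl41 (651 CPM, next 545), CM0 replicate 1 was low for Rpl39l (6.22 CPM, next 8.26), and Ctrl replicate 3 was high for Rpl4 (693 CPM, next 577).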

How the results depend on the processing

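The members' median log2 fold change against Ctrl kept its direction under every setting tried. Its size with library totals alone is not given here. The TMM factors of the Ctrl libraries were 1.01, 1.03, 1.06, 1.02, 1.04 and 0.993, and a factor above 1 lowers a library's CPM. As plain shares of counts, without these factors, the members' ratios to Ctrl were 1.06 (CM0), 1.09 (CM1), 1.11 (CMA) and 1.04 (CMC). No paired analysis was possible because the labels give no replicate numbers. DESeq2 called 1 gene in CM0, 1 in CM1, 1 in CMC and 1 in the test of any difference, and 12 in the mean of the media, against 0 by edgeR in each; none was a member. Leaving out 1 library gave 0 to 1 called genes in CM0 (1 without CM0 replicate 2) and 0 to 5 in the mean of the media (5 without Ctrl replicate 2).

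The number of members higher at an unadjusted p under 0.05 moved most. In CM0 it was 0 with library totals alone, 35 by voom and 9 without Ctrl replicate 3, Ctrl replicate 4 and CM1 replicate 3 together, against 4. In CM1 it was 4 with totals alone, 30 without a filter, 58 by voom, 9 with 2 groups only and 2 without those 3 libraries, against 19. In CMA it was 11 with totals alone, 55 by voom and 9 with 2 groups only, against 31. In CMC it was 1 with totals alone, 10 without a filter, 5 by DESeq2, 19 by voom and 5 without those 3 libraries, against 3. In the mean of the media it was 7 with totals alone and 70 by voom, against 32.

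Leaving out 1 library gave 0 to 28 such members in CM0, 1 to 53 in CM1, 5 to 58 in CMA, 0 to 18 in CMC and 7 to 68 in the mean of the media. In CM0 the count left 1.5 times its value without CM0 replicate 1 (0), 3 (1) or 4 (2), or without Ctrl replicate 1 (10), 3 (28), 4 (0) or 5 (0). In CM1 it did so without CM1 replicate 1 (11), 3 (1) or 4 (31), or any Ctrl library (37, 10, 53, 4, 4 and 10). In CMA the libraries were CMA replicates 3 (5), 4 (15) and 5 (52) and Ctrl replicates 1 (48), 2 (20), 3 (58), 4 (14) and 5 (13). In CMC they were CMC replicates 1 (0), 2 (0), 3 (8) and 5 (9) and Ctrl replicates 1 (18), 3 (15), 4 (1) and 5 (1). In the mean of the media they were the 6 Ctrl libraries (52, 17, 68, 10, 7 and 19). Counts near 0.05 turn on single libraries, and the cause was not tested.

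The members' median log2 fold change against Ctrl ranged from 0.09 to 0.17 in CM0 when 1 library was left out, and 0.12 to 0.22 in CM1. It ranged from 0.12 to 0.23 in CMA, 0.07 to 0.16 in CMC and 0.11 to 0.19 in the mean of the media. Medians between media crossed 0, for example -0.01 to 0.08 for CM1 against CM0. The share of members with a pyrimidine run up to 2 bases from the start was 38.3% with at least 3 bases after the C. It was 35.0% with at least 4 and 26.7% with at least 7. Over all genes in the promoter table the shares were 16.6%, 10.6% and 3.00%. With at least 7 bases from the annotated start itself it was 15.0% of members, against 0.936% of all genes in that table. In the mean of the media, the medians of the ribosome assembly and mTORC1 genes changed sign without Ctrl replicate 3, Ctrl replicate 4 and CM1 replicate 3.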
